A study of Homo sapiens with 9 samples.

Results

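The nuclear genes for the proteins of the mitochondrial ribosome were followed in MDA-MB-453 cells after siRNA knockdown of the long noncoding RNA LINC00673. The members were all genes in the expression table whose symbol is MRPL or MRPS followed by a number, with an optional final A, B or C. This rule found 78 of the 19930 genes with values, 49 of them with a large-subunit (MRPL) and 29 with a small-subunit (MRPS) symbol. Each gene was measured as FPKM, the fragments per kilobase of transcript and per M (mega) mapped fragments.

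MDA-MB-453 is an established human breast cancer cell line. The 9 RNA-seq libraries fell into 3 groups of 3, all from cells transfected with an siRNA by lipofection and taken 48 h later. The control group received a scrambled siRNA with no intended target, and the groups called knockdown 1 and knockdown 2 here each received an siRNA against LINC00673. The numbers come from the library titles, which do not spell out the siRNA, and the study lists its siRNAs against LINC00673 under the same numbers. No label says whether the libraries of a group came from separate cultures, so the P values measure the spread between these libraries, which may be technical. A knockdown group is 1 siRNA in 1 cell line, and LINC00673 itself was not analyzed here, so the extent of the knockdown was not checked. Estimated from the smallest steps in the FPKM values, the libraries held 23.4 to 27.9 M mapped fragments, and libraries of a group correlated at 0.994 to 0.996. Of the markers used to check the cell line, the epithelial genes KRT8 (3011 to 3773 FPKM), KRT18 and EPCAM were high, the leukocyte gene PTPRC and the endothelial gene PECAM1 stayed at or below 0.12 FPKM, and ESR1 stayed at or below 0.02 FPKM. In contrast to PTPRC and PECAM1, the collagen gene COL1A1, also read as a marker of other cells, was at 3.49 to 7.08 FPKM. ERBB2, a receptor tyrosine kinase gene, was at 11.8 to 17.8 FPKM.

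The mitochondrial ribosome translates the few proteins that the mitochondrial genome encodes, all of them subunits of the respiratory chain and ATP synthase. Its RNAs are made in the organelle, whereas its proteins are encoded in the nucleus, made on cytosolic ribosomes and imported. Some have a counterpart in bacterial ribosomes and others exist only in mitochondria. Because the proteins assemble with each other and with ribosomal RNA, mRNA levels are only a first layer of their supply, and protein was not measured here. In bulk RNA, fewer cells of a type and less RNA per cell cannot be told apart.

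A gene was tested if its mean over the 9 libraries reached 1 FPKM, which held for all 78 members and for 12884 genes in total. In the control libraries the mean levels of the members ran from 1.31 to 158 FPKM with a median of 32.7 FPKM. The median was 32.7 FPKM for the large and 32.6 FPKM for the small subunit. The most abundant were MRPL51 (158 ± 4.57 FPKM, mean ± SD, n = 3), MRPS24 (139 ± 7.34), MRPL21 (121 ± 0.85), MRPL37 (91.7 ± 0.82) and MRPL12 (81.7 ± 6.67). The lowest were MRPL45 (1.31 ± 0.117), MRPL19 (6.67 ± 0.055) and MRPS11 (7.78 ± 0.282). Neighbors among these 5 did not overlap in the control libraries. At the estimated depth, the lowest value of MRPL45 corresponded to about 29 fragments. The largest fragment estimate of any member, which also depends on transcript length, was about 3925, in MRPL37.

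The first question was whether knockdown moved these genes together. On the deposited values they had no common direction, and rises and falls were nearly equal in number. Changes are log2 fold changes on the log2(FPKM + 1) scale from a limma fit over all genes and all 9 libraries, and a gene is said to have risen or fallen where P, adjusted by the Benjamini-Hochberg method over all genes tested, did not exceed 0.05. In knockdown 1, 31 members rose and 28 fell against control, while 32.1% of all genes tested rose and 32.3% fell. In knockdown 2, 28 members rose and 26 fell, while 26.0% of all genes rose and 44.8% fell. The shares of members were 39.7% and 35.9% in knockdown 1 and 35.9% and 33.3% in knockdown 2. The median change was 0.003 for the members and 0.003 for all genes in knockdown 1, and 0.024 for the members and -0.095 for all genes in knockdown 2. With each library scaled by the median ratio of its expressed genes, the members in knockdown 2 split into 39 that rose and 18 that fell, and with a correction for GC content into 46 and 16, while the split in knockdown 1 became 31 and 28 or 33 and 23. Of all genes tested in knockdown 2, 34.4% then rose and 35.1% fell with the median-ratio scaling, and 37.8% rose and 37.0% fell with the GC correction.

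The changes were small in most members. Under the limits of the study (1.3-fold or more, with P before adjustment no higher than 0.05), 9 members were higher and 7 lower in knockdown 1, where 11.1% of all genes were higher and 15.6% lower. In knockdown 2, 8 were higher and 10 lower, where the limits called 11.0% of all genes higher and 23.1% lower. The FPKM values of the 3 knockdown 1 libraries did not overlap those of the 3 control libraries in 58 members (74.4%), against 70.0% of all genes. In knockdown 2 this held for 55 members (70.5%), against 73.0% of all genes.

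The same control libraries enter both comparisons, so their results are given side by side and not as independent. Of the 78 members, 24 rose in both knockdowns, 22 fell in both, 12 were called in neither and 1, MRPS31, went opposite ways. The study's limits were passed upward in both by MRPL13, MRPL17, MRPL18, MRPL24, MRPL40, MRPL47 and MRPS30, and downward in both by MRPL41, MRPL53 and MRPS26. How many of all genes were called the same way in both knockdowns was not counted. The agreement is therefore not read as particular to the members. The members that rose in both had a median control level of 24.9 FPKM and a median transcript GC content of 47.4%. Those that fell in both had a median level of 41.5 FPKM and a median GC content of 50.4%.

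**Figure D1:**
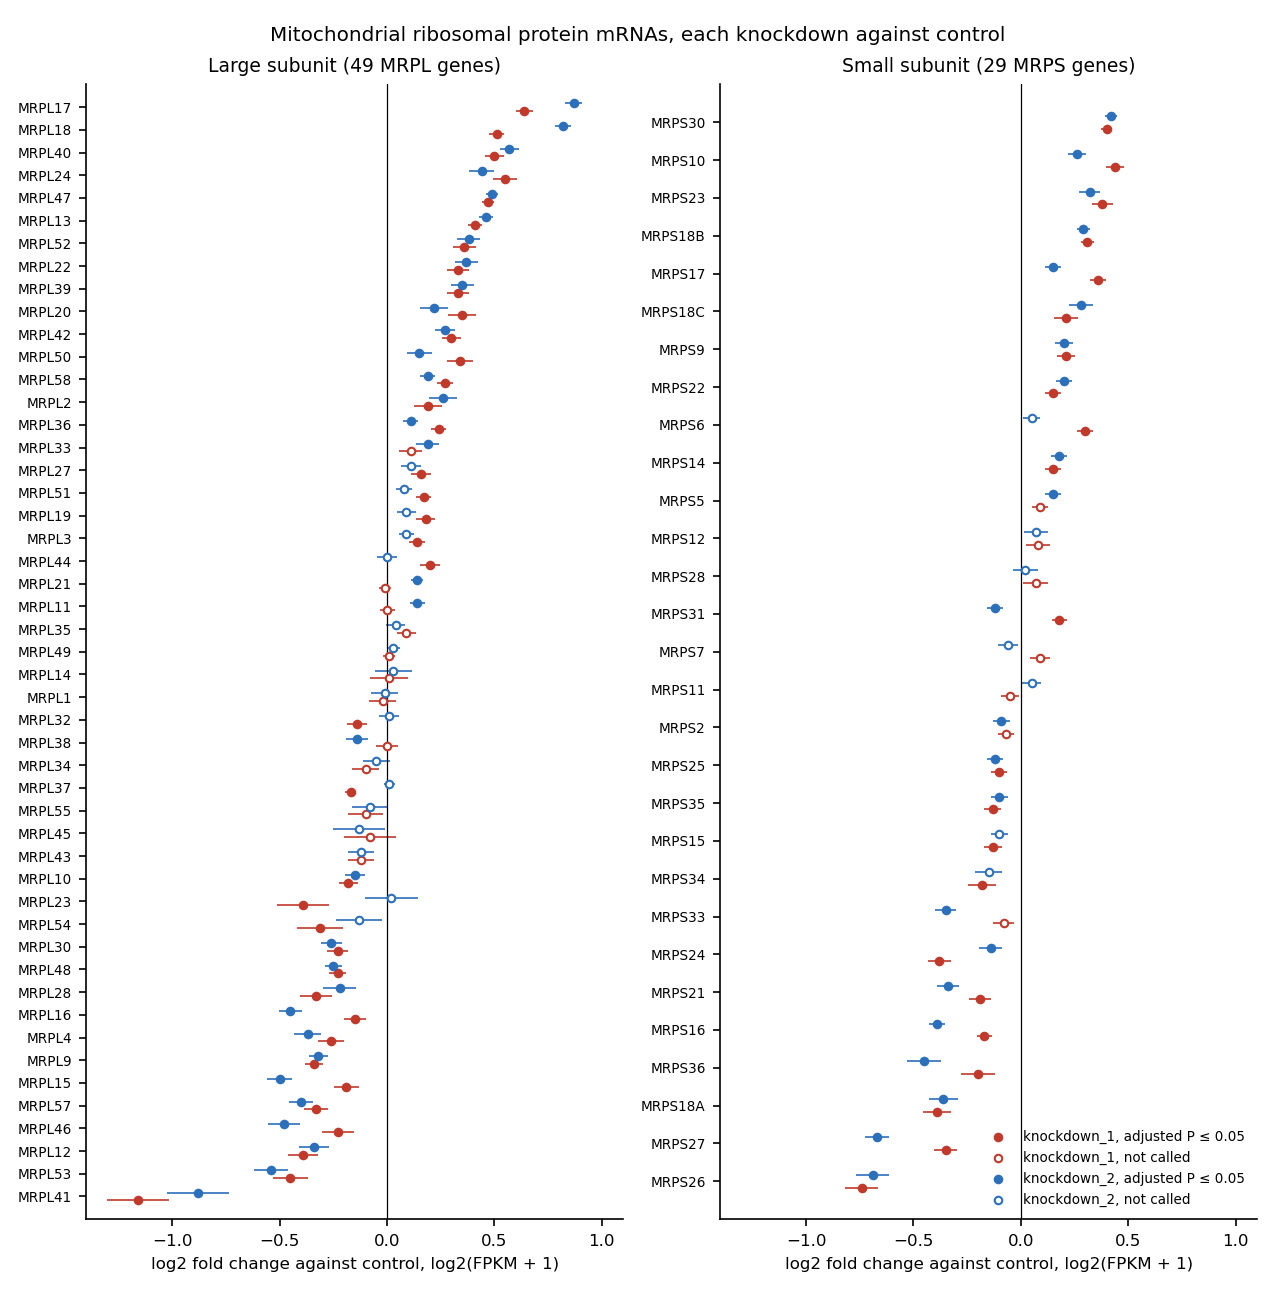
Log2 fold change of every member against control on the log2(FPKM + 1) scale, with knockdown 1 in red, knockdown 2 in blue, bars of 1 standard error and open points for genes not called at an adjusted P of at most 0.05. Both subunits hold genes on either side of 0, from MRPL17 (0.64 and 0.87) to MRPL41 (-1.16 and -0.88).

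The 5 largest mean rises among the members that rose in both knockdowns were all in large-subunit genes. MRPL17, the counterpart of a bacterial protein near the exit of the peptide tunnel, lies at chr11:6701616-6704632 on the minus strand (coordinates as the table gives them; the submitters' processing notes name GRCh37.p13). Its FPKM was 19.6, 19.96 and 19.4 in the control libraries, 29.4, 31.9 and 31.9 in knockdown 1 and 36.4, 35.8 and 37.6 in knockdown 2. The 3 groups did not overlap, and the gene rose by 0.64 (SE 0.039, adjusted P = 6.9e-07) and 0.87 (adjusted P = 5.4e-08).

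MRPL18, whose bacterial counterpart binds 5S ribosomal RNA, lies at chr6:160210775-160219461 on the plus strand. It was at 67.9, 64.3 and 61.2 FPKM in control, 89.99, 92.8 and 93.3 in knockdown 1 and 114, 115 and 115 in knockdown 2. Again every library of knockdown 2 was above every library of knockdown 1, and these were above control. The rises were 0.51 (SE 0.037, adjusted P = 2e-06) and 0.82 (adjusted P = 5.8e-08). MRPL18 begins 40 bases from the start of TCP1 on the other strand, which encodes a subunit of the cytosolic chaperonin and rose by 0.64 and 0.68.

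MRPL40 is a mitochondria-specific subunit at chr22:19419425-19423601. It was at 19.1, 19.3 and 18.8 FPKM in control, 29.1, 26.5 and 26.8 in knockdown 1 and 27.8, 28.6 and 29.97 in knockdown 2, rises of 0.50 and 0.57 (SE 0.043). MRPL24, whose bacterial counterpart binds early in assembly of the large subunit, was at 22.5, 23.7 and 22.5 FPKM in control, 34.4, 35.5 and 32.5 in knockdown 1 and 29.98, 30.2 and 34.5 in knockdown 2. The corresponding changes of MRPL24 were 0.55 and 0.44 (SE 0.056). MRPL47, the counterpart of bacterial L29 by the tunnel exit, rose by 0.47 and 0.49 (SE 0.029) from a control mean of 23.0 ± 0.209 FPKM to 32.2 ± 0.670 and 32.6 ± 0.441 FPKM (n = 3). In these 3 genes each knockdown lay above control with no overlap, and the knockdowns overlapped each other.

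The 5 largest falls came from both subunits. MRPL41, a mitochondria-specific subunit at chr9:140446309-140447007, was at 45.0, 35.6 and 44.0 FPKM in control, 19.2, 19.5 and 15.3 in knockdown 1 and 18.3, 27.2 and 21.3 in knockdown 2. It fell by 1.16 (SE 0.143, adjusted P = 6.1e-05) and by 0.88 (adjusted P = 0.00032), the largest changes of any member. Its transcript also had the highest GC content of the members, 71.9%. With the correction for GC content its changes were -0.36 (adjusted P = 0.00096) and -0.14 (adjusted P = 0.1), so the call in knockdown 2 was lost.

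MRPS26, a mitochondria-specific small-subunit protein encoded at chr20:3026675-3028896, was at 43.5, 39.3 and 40.6 FPKM in control, 24.9, 25.1 and 22.4 in knockdown 1 and 22.0, 26.9 and 26.8 in knockdown 2. It fell by 0.74 (SE 0.077, adjusted P = 2e-05) and by 0.69 (adjusted P = 2.5e-05). Its GC content was 63.4%, and with the GC correction the changes were -0.37 and -0.28, both still called. MRPS27, a pentatricopeptide repeat protein of the small subunit at chr5:71515236-71616084, differed in that its GC content was only 44.3%. It was at 26.5, 26.9 and 26.4 FPKM in control, 19.2, 21.2 and 21.6 in knockdown 1 and 17.6, 15.7 and 15.6 in knockdown 2, falls of 0.35 and 0.67 (SE 0.055). With the GC correction MRPS27 was at -0.43 and -0.63.

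MRPL53 was at 45.0, 36.2 and 43.0 FPKM in control, 32.1, 28.4 and 29.3 in knockdown 1 and 26.1, 28.4 and 29.6 in knockdown 2, changes of -0.45 and -0.54 (SE 0.080). This mitochondria-specific subunit is uncertain as a separate measurement, since 47.9% of its 100-base windows are shared with the overlapping gene CCDC142 on the same strand. MRPS18A fell by 0.39 and by 0.36 (SE 0.066), from 57.1, 47.3 and 50.7 FPKM to 38.9, 39.4 and 39.2 in knockdown 1 and 37.9, 39.0 and 43.0 in knockdown 2. In all 5 genes the knockdown libraries lay below every control library.

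**Figure D2:**
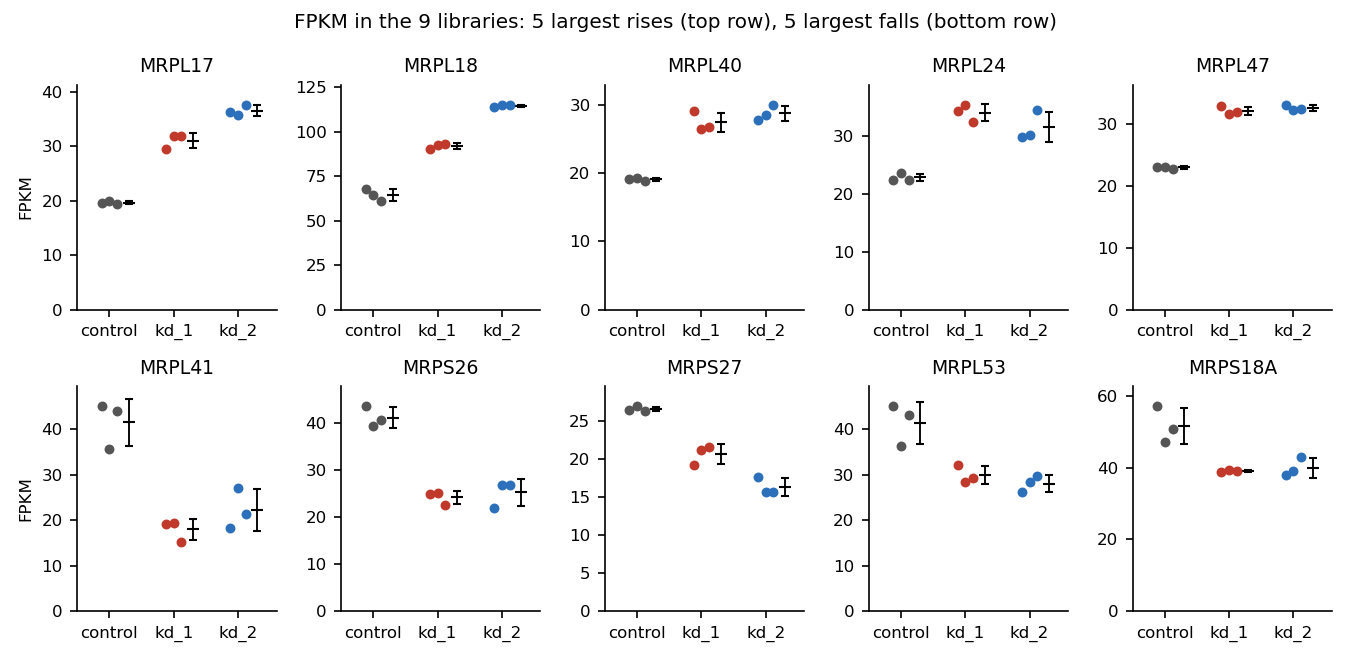
FPKM of the 5 members with the largest rises in both knockdowns (top) and the 5 with the largest falls (bottom) in each library, with the group mean and SD (n = 3) beside the points and kd for knockdown. MRPL17 and MRPL18 were ordered control, knockdown 1, knockdown 2 with no overlap, and MRPL41 fell from 41.5 to 17.97 and 22.3 FPKM.

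The second question was whether the subunits differed. Of the 49 large-subunit members 20 rose and 17 fell in knockdown 1, and 18 rose and 14 fell in knockdown 2, with median changes of -0.000 and 0.026. Of the 29 small-subunit members 11 rose and 11 fell in knockdown 1, and 10 rose and 12 fell in knockdown 2, with medians of 0.065 and -0.060. In knockdown 1 the shares that rose and fell were 40.8% and 34.7% (large), 37.9% and 37.9% (small) and 32.1% and 32.3% (all genes). In knockdown 2 they were 36.7% and 28.6% (large), 34.5% and 41.4% (small) and 26.0% and 44.8% (all genes). The large-subunit median minus the small-subunit median was thus -0.066 in knockdown 1 and 0.086 in knockdown 2. The same difference, taken within single libraries against the control mean, varied with a pooled SD of 0.031 between libraries of the same group. It was -0.013, -0.069 and -0.027 in the knockdown 1 and 0.096, 0.111 and 0.036 in the knockdown 2 libraries. It had no constant sign across the knockdowns. In knockdown 1 it was 0.010 with the GC correction and 0.020 with a correction for transcript length. Without replicate 1 of knockdown 1 it was -0.020 and without replicate 2 of the control -0.026.

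Summed over the genes, the large subunit made up 1976, 1869 and 1913 FPKM in the control libraries, 1947, 1965 and 1920 in knockdown 1 and 1945, 2012 and 2008 in knockdown 2. The small subunit summed to 1135, 1099 and 1089 FPKM in control, 1090, 1094 and 1098 in knockdown 1 and 1061, 1062 and 1083 in knockdown 2. The ratio of the sums was 1.73 ± 0.029 in control, 1.78 ± 0.026 in knockdown 1 and 1.86 ± 0.031 in knockdown 2 (mean ± SD, n = 3). The ratios of knockdown 2 (1.83 to 1.89) did not overlap those of control (1.70 to 1.76), while those of knockdown 1 (1.75 to 1.80) did. The sums weigh each gene by its level, so that the abundant MRPS24, MRPL21 and MRPL51 count most. Together the members held 0.578% of all FPKM in control, 0.616% in knockdown 1 and 0.594% in knockdown 2, while the summed FPKM of the cytosolic ribosomal protein genes was lower in every knockdown library (110042 to 123430) than in any control library (137440 to 144086).

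**Figure D3:**
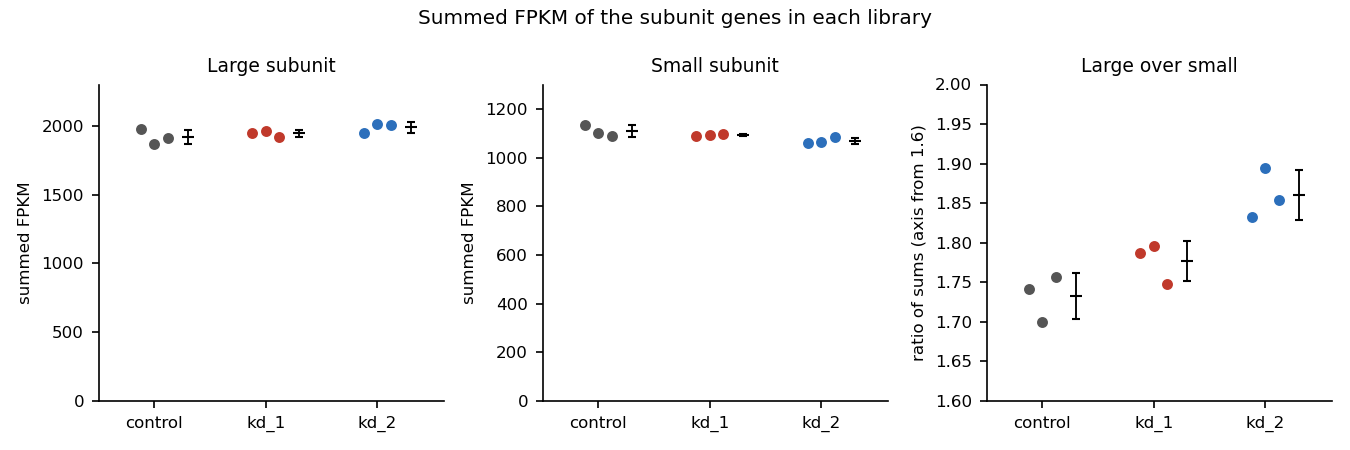
Summed FPKM of the large-subunit and small-subunit genes and their ratio in each library, with the group mean and SD (n = 3); kd stands for knockdown, and the axis of the ratio starts at 1.6. The ratio was 1.73 in control, 1.78 in knockdown 1 and 1.86 in knockdown 2.

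By origin, the 29 large-subunit members with a bacterial counterpart had medians of 0.006 and 0.086, with 12 that rose and 10 that fell in knockdown 1 and 12 and 8 in knockdown 2. The 18 mitochondria-specific large-subunit members had medians of -0.040 and -0.059, with 7 and 7, then 5 and 6. Among small-subunit members, the 15 with a bacterial counterpart had medians of 0.081 and 0.049, with 5 that rose and 4 that fell in each knockdown, counted separately. The 9 mitochondria-specific ones had medians of -0.101 and -0.124, with 3 that rose and 5 that fell, then 2 and 6. Those 9 include MRPS26 and MRPS27, and the members that rose among them in both knockdowns were MRPS22 and MRPS23. For comparison, 32.1% of all genes rose and 32.3% fell in knockdown 1, and 26.0% rose and 44.8% fell in knockdown 2.

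Symbols do not always name the true subunit. MRPS18A, MRPS18B and MRPS18C are paralogs of the bacterial protein S18, of which MRPS18A sits in the large subunit. They moved in different directions. MRPS18B was at 47.7, 47.6 and 46.1 FPKM in control and at 57.0, 59.6 and 59.6 in knockdown 1 and 58.8, 57.2 and 57.8 in knockdown 2, rises of 0.31 and 0.29 (SE 0.030), and MRPS18C rose by 0.21 and 0.28 (SE 0.055), whereas MRPS18A fell, as given above. With the GC correction MRPS18C was at 0.11 in knockdown 1 (adjusted P = 0.086).

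MRPS30 is likewise a protein of the large subunit. It was at 38.2, 38.4 and 37.7 FPKM in control, 50.8, 50.8 and 50.7 in knockdown 1 and 51.8, 51.6 and 50.4 in knockdown 2. These were rises of 0.40 and 0.42 (SE 0.026) with no overlap. MRPS36 is now known as a component of the 2-oxoglutarate dehydrogenase complex rather than of the ribosome. It fell by 0.20 and by 0.45 (SE 0.080), from 13.8, 13.7 and 12.02 FPKM in control to 9.87, 12.3 and 11.9 in knockdown 1 and 9.87, 9.39 and 8.84 in knockdown 2. Its knockdown 1 libraries overlapped control, and the call in knockdown 1 was lost without replicate 0 of knockdown 1 (-0.11, adjusted P = 0.17), replicate 1 or 2 of knockdown 2 (-0.20, adjusted P = 0.061 and 0.052) or replicate 0 or 1 of control (-0.17 and -0.18, adjusted P = 0.14 and 0.13). With MRPS30 and MRPS18A counted in the large subunit and MRPS36 left out, the medians were -0.000 and 0.073 in knockdown 1 and 0.026 and -0.018 in knockdown 2, so that the difference in knockdown 2 became 0.044.

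At the stalk of the large subunit, which recruits translation factors, MRPL10 anchors MRPL12, and MRPL11 lies at their base. MRPL12 was at 87.3, 74.3 and 83.4 FPKM in control, 65.8, 62.1 and 58.2 in knockdown 1 and 58.9, 65.5 and 67.8 in knockdown 2. It fell by 0.39 and by 0.34 (SE 0.070) on the deposited values, but with the GC correction its changes turned to 0.04 and 0.11, its GC content being 64.6%. In addition, 64.8% of its 100-base windows are shared with another annotated gene. MRPL10 fell by 0.18 and by 0.15 (SE 0.046), the latter not called with the median-ratio scaling (-0.04) or the GC correction (-0.02), and not without replicate 1 of knockdown 2 (-0.13, adjusted P = 0.055) or replicate 0 of control (-0.12, adjusted P = 0.058). In contrast, MRPL11 was not called in knockdown 1 (-0.00) and rose by 0.14 (SE 0.035, adjusted P = 0.0046) in knockdown 2. MRPS12, the counterpart of the bacterial decoding protein S12, was at 0.08 and 0.07 (SE 0.055; adjusted P = 0.22 and 0.3) and was called as risen in both knockdowns only after the GC correction (0.23 and 0.28).

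Among the 12 members called in neither knockdown, the changes nearest 0 in the large subunit were those of MRPL1 (-0.02 and -0.01, SE 0.063) and MRPL14 (0.01 and 0.03, SE 0.088), and in the small subunit those of MRPS28 (0.07 and 0.02, SE 0.058) and MRPS11 (-0.05 and 0.05, SE 0.044). Of the most abundant gene and the lowest ones, MRPL51 rose in knockdown 1 (0.17, SE 0.036) and was at 0.08 (adjusted P = 0.069) in knockdown 2. MRPL45, the lowest, had changes of -0.08 and -0.13 (SE 0.122), an error over 3 times that of MRPL51. Its change in knockdown 2 ran from -0.29 to -0.01 when single libraries were left out, and it was called without replicate 1 of knockdown 2 (-0.29, adjusted P = 0.019). MRPL19 rose in knockdown 1 (0.18, SE 0.044) and was at 0.09 (adjusted P = 0.098) in knockdown 2.

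The third question was how the knockdowns differed from each other. Between knockdown 2 and knockdown 1, 8 members rose and 17 fell, where 10.2% of all genes rose and 33.9% fell. The median was -0.003 for the members and -0.081 for all genes. Of the 17 that fell, 10 were small-subunit genes, of 29, and 7 were large-subunit genes, of 49. One gene, MRPL23, passed the study's limits, which 7.64% of all genes passed in either direction. With the median-ratio scaling 23 members rose and 8 fell, and with the GC correction 30 rose and 8 fell. The split of all genes turned as well, with 25.7% that rose and 22.1% that fell after the GC correction, and with 20.9% that rose, more than fell, after the median-ratio scaling. Without replicate 2 of knockdown 1, 11 members fell.

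MRPL18 and MRPL17 rose further, by 0.31 (SE 0.037, adjusted P = 0.0002) and by 0.23 (SE 0.039, adjusted P = 0.0013). MRPL23, which lies at the exit of the peptide tunnel, was at 48.2, 42.2 and 52.9 FPKM in control, 43.1, 33.1 and 32.8 in knockdown 1 and 42.8, 54.7 and 48.4 in knockdown 2. Its difference between the knockdowns was 0.42 (SE 0.122, adjusted P = 0.020), but the groups overlapped. The fall of MRPL23 in knockdown 1 (-0.39, adjusted P = 0.017) was lost without replicate 1 (-0.33, adjusted P = 0.063) or 2 (-0.33, adjusted P = 0.062) of knockdown 1 or replicate 2 of control (-0.32, adjusted P = 0.066). The difference between the knockdowns was 0.35 (adjusted P = 0.071) without replicate 1 of knockdown 1, 0.35 (adjusted P = 0.072) without its replicate 2 and 0.33 (adjusted P = 0.072) without replicate 1 of knockdown 2. MRPS24, the counterpart of bacterial S3 at the mRNA entry, was at 147, 133 and 137 FPKM in control, 109, 105 and 106 in knockdown 1 and 117, 127 and 135 in knockdown 2. Its level was higher in knockdown 2 than in knockdown 1 by 0.24 (SE 0.053, adjusted P = 0.0048). Against control MRPS24 fell by 0.38 in knockdown 1 and by 0.14 (adjusted P = 0.042) in knockdown 2, and the latter call was lost without any 1 of 7 libraries, with values of -0.08 to -0.14. Reads of MRPS24 can also come from the readthrough gene URGCP-MRPS24, which overlaps it.

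The largest falls between the knockdowns were those of MRPS27 (-0.32, SE 0.055), MRPL16 (-0.30, SE 0.052) and MRPL15 (-0.30, SE 0.059). MRPL16, the counterpart of bacterial L16 near the peptidyl transferase center, was at 29.2, 29.3 and 29.3 FPKM in control, 26.0, 27.2 and 25.7 in knockdown 1 and 19.2, 21.6 and 22.6 in knockdown 2. MRPL15 was at 14.8, 13.4 and 12.7 FPKM in control, 12.2, 11.9 and 11.2 in knockdown 1 and 9.75, 8.83 and 9.50 in knockdown 2. In these genes the fall from control was the larger in knockdown 2, with no overlap between the knockdowns. The calls in knockdown 1, -0.15 (adjusted P = 0.028) for MRPL16 and -0.19 (adjusted P = 0.016) for MRPL15, were lost without single libraries, at -0.14 to -0.15 without 5 libraries in MRPL16 and at -0.16 without replicate 2 of knockdown 1 and -0.14 without replicate 0 of control in MRPL15. MRPS31, a mitochondria-specific small-subunit protein, was at 17.2, 17.03 and 17.7 FPKM in control, 20.6, 19.3 and 19.4 in knockdown 1 and 15.9, 15.7 and 16.1 in knockdown 2. It rose by 0.18 in knockdown 1 and fell by 0.12 in knockdown 2, a difference of -0.30 between them (SE 0.035, adjusted P = 0.00021). With the median-ratio scaling its change in knockdown 2 was -0.02 (adjusted P = 0.69), and without replicate 2 of control -0.10 (adjusted P = 0.053), while the difference between the knockdowns stayed called.

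Among the members, genes with transcripts of lower GC content rose more often. Across the 78 members, which share the libraries, Pearson's r between change and GC content was -0.50 in knockdown 1 and -0.32 in knockdown 2 (Spearman's rho -0.42 and -0.32), and across the 11380 genes tested that have a GC value it was -0.37 and -0.24. In the 26 members of lowest GC content (35.0 to 44.9%), 17 rose and 5 fell in knockdown 1, with a median of 0.18. In the 26 of highest GC content (53.7 to 71.9%), 5 rose and 12 fell, with a median of -0.11. All genes tested in the same ranges of GC content had medians of 0.08 and -0.17. In knockdown 2 the medians were 0.12 and -0.11 for the members and -0.05 and -0.24 for all genes. There, 13 members of lowest GC content rose and 6 fell, and 6 of highest GC content rose and 11 fell. How often all genes tested in these ranges rose or fell was not counted. The part of GC content in the calls of single members was measured only by the correction given above. MRPL17 (53.5%), MRPL40 (53.9%) and MRPL24 (54.1%) rose at a GC content near the lower end of that last range, and with the correction they were at 0.63 and 0.94, 0.51 and 0.65, and 0.56 and 0.53.

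**Figure D4:**
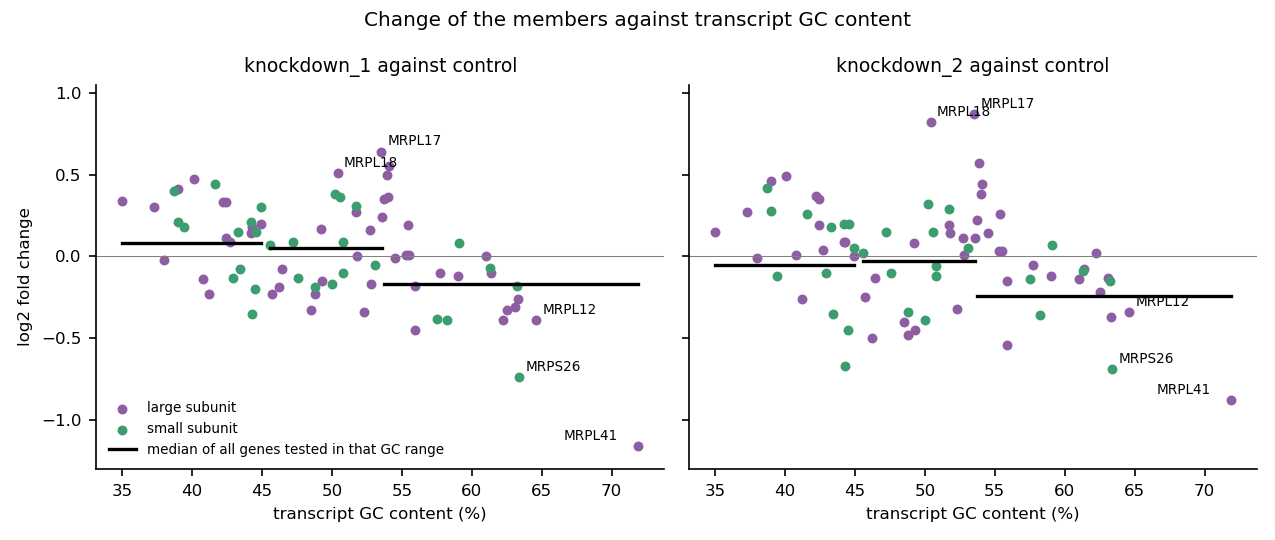
Log2 fold change of each member against the GC content of its transcript in percent, by subunit and knockdown, with black lines for the median of all genes tested in the GC range of each 26 members. Members of low GC content lay mostly above 0 and MRPL41, at 71.9%, lay lowest, while MRPL17, at 53.5%, lay highest in both knockdowns and MRPL18, at 50.4%, lay next to it in knockdown 2.

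Promoters of these genes are known for sites of nuclear respiratory factors. To show them, the bases around the start of 5 named members are printed from RefSeq (GRCh38.p14), 100 bases before to 30 after the start, 5′ to 3′ on the strand of the gene. The genes were chosen to set 2 of the largest rises beside 3 of the largest falls. Where a gene had several listed starts, the start whose stretch held the most motif matches was printed. The numbers of matches per stretch are therefore selected and are not compared between genes. Capitals mark CCGGAAG (bound by the ETS family, GABP included), GCATGCGC (NRF1) or AAGATGGC (YY1) on either strand.
MRPL17, chr11:6683311-6683440, minus strand, which rose: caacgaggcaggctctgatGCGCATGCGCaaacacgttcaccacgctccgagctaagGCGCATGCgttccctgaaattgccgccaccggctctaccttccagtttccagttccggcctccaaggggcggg
MRPL47, chr3:179604609-179604738, minus strand, which rose: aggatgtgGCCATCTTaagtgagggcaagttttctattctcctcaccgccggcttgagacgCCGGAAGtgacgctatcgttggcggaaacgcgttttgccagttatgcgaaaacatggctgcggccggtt
MRPL41, chr9:137551779-137551908, plus strand, which fell: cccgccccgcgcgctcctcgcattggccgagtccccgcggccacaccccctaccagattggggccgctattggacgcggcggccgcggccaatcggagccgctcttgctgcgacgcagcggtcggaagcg
MRPS26, chr20:3045952-3046081, plus strand, which fell: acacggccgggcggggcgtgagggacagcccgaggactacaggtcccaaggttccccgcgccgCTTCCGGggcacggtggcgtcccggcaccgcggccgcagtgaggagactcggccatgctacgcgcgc
MRPS27, chr5:72320211-72320340, minus strand, which fell: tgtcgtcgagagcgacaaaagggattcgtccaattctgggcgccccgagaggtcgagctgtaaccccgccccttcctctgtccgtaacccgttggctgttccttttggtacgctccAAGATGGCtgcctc

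The MRPL17 stretch held 3 matches to the NRF1 motif, of which 2 overlap each other on opposite strands in 1 run. The MRPL47 stretch held 1 ETS and 1 YY1 match, MRPS26 held 1 ETS match, MRPS27 held 1 YY1 match and MRPL41 held none. The GC content of the printed stretch was 74.6% in MRPL41, 75.4% in MRPS26 and 59.2% in MRPS27, which fell. It was 62.3% in MRPL17 and 54.6% in MRPL47, which rose, so MRPS27 lay between these.

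Promoter windows of 300 bases, 250 before to 50 after a start, were listed for 70 of the 78 members. The ETS motif was present in 30 of these members (42.9%), against 12.2% of all 27305 genes in the table and 23.5% of the genes tested here. The YY1 motif was present in 21 of the 70 members, against 3.52% and 6.81%. The NRF1 motif was present in 6 members (8.57%), against 3.68% and 6.63%. These 6 were MRPL17, MRPL22, MRPL32, MRPL52, MRPS18B and MRPS18C, and 5 of them rose in both knockdowns, the exception being MRPL32. Of the 22 members with a window that rose in both knockdowns, 10 held the ETS and 10 the YY1 motif. Of the 20 that fell in both, 9 held the ETS and 4 the YY1 motif. The 21 members with the YY1 motif had median changes of 0.17 and 0.08, with 11 that rose and 5 that fell in knockdown 1 and 10 and 5 in knockdown 2. How often all tested genes with the NRF1, ETS or YY1 motif rose or fell was not counted. These splits, that of the 6 members with the NRF1 motif included, are therefore not read as tied to a motif. A match is only a stretch of letters, and binding was not measured.

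The transcription factors named by these motifs were read at the mRNA level, with others known to act on nuclear genes for mitochondria. YY1 was at 23.7 ± 1.12 FPKM in control, 23.5 ± 0.688 in knockdown 1 (-0.01, adjusted P = 0.86) and 20.3 ± 1.87 in knockdown 2 (n = 3), where it fell by 0.22 (SE 0.062) but was at -0.12 with the median-ratio scaling. NRF1 fell by 0.19 and by 0.38 (SE 0.062) from 4.30 ± 0.202 FPKM, the former not called without replicate 1 or 2 of knockdown 1 or replicate 2 of control (-0.16 in each). GABPA, the DNA-binding subunit of GABP, rose by 0.12 in knockdown 1 (0.03 with the GC correction, and 0.08 to 0.13 without each of 4 libraries, no longer called) and was at -0.10 (adjusted P = 0.059) in knockdown 2. MYC was at -0.06 (adjusted P = 0.18) in knockdown 1 and fell by 0.25 in knockdown 2 on the deposited values, and with the GC correction it was at 0.07 and -0.06. The largest fall was that of ESRRA, a nuclear receptor that drives genes of oxidative metabolism, by 1.19 and by 1.20 (SE 0.098), from 33.6, 28.7 and 30.5 FPKM in control to 14.6, 13.2 and 11.4 in knockdown 1 and 11.4, 14.4 and 13.04 in knockdown 2. With the GC correction the changes of ESRRA were -0.72 and -0.71, both still called. The coactivator HCFC1 rose by 0.36 and 0.18, and by 0.56 and 0.44 with the GC correction. Of the 8 regulators tested, 3 rose and 2 fell in knockdown 1 and 1 rose and 4 fell in knockdown 2. The shares of all genes that rose and fell were 32.1% and 32.3% in knockdown 1 and 26.0% and 44.8% in knockdown 2.

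Genes of the mitochondrial ribosome often share a promoter with a neighbor. A head-to-head neighbor, a gene on the other strand starting within 1000 bases, was found for 22 of the 78 members (28.2%) and for 11.8% of the 11389 known genes tested. MRPL46 and MRPS11, which start 51 bases apart, form a pair of members. MRPL46 fell by 0.23 and by 0.48, while MRPS11 was at -0.05 and 0.05. MRPL40 rose by 0.50 and 0.57 while its neighbor HIRA, a histone chaperone gene, fell by 0.19 and by 0.41. MRPS18B rose by 0.31 and 0.29 while PPP1R10, which encodes a regulatory subunit of protein phosphatase 1, fell by 0.42 and by 1.25. These pairs, and that of MRPL18 and TCP1, were chosen after their values were seen. Of the 21 pairs, 19 had both genes tested. In knockdown 1 both genes rose in 2 pairs, both fell in 1 and they changed in opposite directions in 6, and in knockdown 2 the counts were 2, 0 and 7. In the other 10 pairs of each knockdown at least 1 gene was not called. How often head-to-head pairs of all genes tested changed the same or opposite ways was not counted. The pair counts are therefore not read as particular to the members.

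Subunits whose names lie outside the rule were read beside the members. DAP3, the GTP-binding protein of the small subunit, fell by 0.30 (SE 0.038) in knockdown 1 and was at -0.05 in knockdown 2. AURKAIP1, a small-subunit protein, fell by 0.76 and by 0.61 (SE 0.117). GADD45GIP1, a large-subunit protein at the tunnel exit, was at 43.1, 35.4 and 42.4 FPKM in control, 23.0, 21.4 and 15.8 in knockdown 1 and 22.5, 33.7 and 29.8 in knockdown 2, falls of 0.98 and 0.49 (SE 0.159). The fall of GADD45GIP1 in knockdown 2 was not called without replicate 0 of knockdown 2 (-0.33, adjusted P = 0.065), replicate 0 of control (-0.44, adjusted P = 0.063) or replicate 2 of control (-0.45, adjusted P = 0.058), nor with the GC correction (-0.23, adjusted P = 0.1). Of these 5 genes, 3 fell in each knockdown and 0 rose, where 32.3% of all genes fell in knockdown 1 and 44.8% in knockdown 2. CHCHD1 was called in neither, by limma, at 0.04 and 0.09 (SE 0.053, adjusted P = 0.54 and 0.17).

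Of the 24 assembly factors of the mitochondrial ribosome tested, 5 rose (20.8%) and 10 fell (41.7%) in knockdown 1, where 32.1% of all genes rose and 32.3% fell. In knockdown 2, 4 of the 24 rose and 18 fell, where 26.0% of all genes rose and 44.8% fell. The medians of the assembly factors were -0.097 and -0.290, and those of all genes 0.003 and -0.095. NOA1, a GTPase of ribosome assembly, was at 32.5, 31.4 and 32.4 FPKM in control, 16.2, 16.2 and 14.8 in knockdown 1 and 13.2, 13.3 and 12.7 in knockdown 2, falls of 0.99 and 1.24 (SE 0.041). RPUSD4, a pseudouridine synthase acting on the large ribosomal RNA, fell by 0.88 and by 1.12 (SE 0.037). MTERF3, which acts on mitochondrial transcription and ribosome assembly, rose by 0.42 and 0.24 (SE 0.051).

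Of the 15 mitochondrial translation factors tested, 7 rose and 3 fell in knockdown 1 and 3 rose and 6 fell in knockdown 2. SLIRP, which with LRPPRC stabilizes mitochondrial mRNAs, was at 93.4, 91.7 and 95.1 FPKM in control, 140.2, 138 and 141 in knockdown 1 and 156, 154 and 156 in knockdown 2, rises of 0.58 and 0.73 (SE 0.025). TUFM, the elongation factor that brings aminoacyl-tRNA to the ribosome, was at -0.16 and -0.20 (SE 0.047), both called as falls, but with the GC correction at -0.01 and 0.02. TSFM, its nucleotide exchange factor, fell by 0.13 and by 0.48 (SE 0.050), the former not called without each of 5 libraries (-0.09 to -0.15). Among 13 genes of mitochondrial transcription and genome upkeep, 5 rose (38.5%) and 1 fell (7.69%) in knockdown 1. In knockdown 2, 2 of these genes rose (15.4%) and 7 fell (53.8%), where 26.0% of all genes rose and 44.8% fell. PNPT1, the mitochondrial polynucleotide phosphorylase, rose by 0.60 and 0.55 (SE 0.038). POLRMT, the mitochondrial RNA polymerase, fell by 0.34 and by 0.33 (SE 0.098) on the deposited values and was at 0.06 and 0.10 with the GC correction.

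Of the 17 mitochondrial aminoacyl-tRNA synthetases, 7 rose (41.2%) and 5 fell (29.4%) in knockdown 1, where 32.1% of all genes rose and 32.3% fell. In knockdown 2, 4 of the 17 rose (23.5%) and 7 fell (41.2%), where 26.0% of all genes rose and 44.8% fell. CARS2, for cysteine, rose by 0.65 and 0.76 (SE 0.041). SARS2, for serine, fell by 0.71 and by 0.96 (SE 0.038), with -0.45 and -0.65 after the GC correction, and it overlaps MRPS12 on the opposite strand, where MRPS12 was at 0.08 and 0.07. The deposited values held no mRNA encoded in the mitochondrial genome under the symbols searched, so the mitochondrial ribosome's own templates were not seen.

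Most genes of the cytosolic ribosome fell. Of the 80 tested, 4 rose and 72 fell in knockdown 1 and 7 rose and 57 fell in knockdown 2. Their medians were -0.300 and -0.158, against 0.003 and 0.024 for the mitochondrial members and 0.003 and -0.095 for all genes. Of all genes, 32.1% rose and 32.3% fell in knockdown 1, and 26.0% rose and 44.8% fell in knockdown 2. Between knockdown 2 and knockdown 1, 59 of the cytosolic ribosomal protein genes rose and 2 fell, against 8 and 17 of the members. In that comparison 10.2% of all genes rose and 33.9% fell. The list was read on the same FPKM scale, and its part in the levels of the members was not tested.

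Lastly, the sense strands of the siRNAs were searched for stretches shared with the members' transcripts in GENCODE. The study's sense strands are shown because partial matches can make an siRNA act on other mRNAs.
LINC00673-siRNA1: gguggaaucagagguuucutt
LINC00673-siRNA2: agacccugucucaaauaauaa
The longest run of the first in any member was 10 bases, and of the second 15 bases, found in MRPS18B and MRPS23. Both genes rose in knockdown 2, by 0.29 and 0.32, and in knockdown 1, by 0.31 and 0.38. No other member shared 14 or more bases with the sense strand of either siRNA. The first was searched without its final tt, and the sequence of the antisense strands was not searched for.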

How the data were processed

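The deposited table holds 1 FPKM value per gene and library, made by the authors from BGISEQ-500 reads; the submitters' processing notes name Bowtie2 and GRCh37.p13, and the counting tool and the handling of strand are not given in the sources used here. FPKM holds no counts, so library depth was inferred from the spacing of low values, and no count test was run. Groups were taken from the library titles. Genes whose mean over 9 libraries reached 1 FPKM were fitted as log2(FPKM + 1) with limma 3.58.1 (R 4.3.3; trend in eBayes, all groups in 1 fit, no covariate), with P values adjusted over all 12884 genes; a fold change on this scale understates the change of low genes. The code was tested on simulated data. The members and gene lists were chosen with earlier results of these data known. Named members were the 5 largest mean rises and falls called in both knockdowns, the 3 largest rises and falls between knockdowns, the 5 highest and 3 lowest levels, the S18 family, MRPS30, MRPS36, stalk and decoding proteins, those called in opposite directions and the 2 of each subunit nearest 0; in other lists, the largest rise and fall called in both and fixed regulators. MRPL13, MRPL46, MRPS22, MRPS23, RPUSD4 and neighbors were named after their values were seen. GC content came from GENCODE transcripts and shared sequence from their 100-base windows. Alternatives were another added value (0.1 FPKM), other filters, other samples or scaling, and corrections for GC content and length by lowess. Python 3.11.15 was used for summaries. A marker of the cell line is not reported here.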

Additional observations from a re-analysis of the deposited data

Results flagged for a closer look

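For 12 named members the change from control differed between the knockdowns in the limma fit (adjusted P of at most 0.05 for knockdown 2 against knockdown 1), and the values are log2 differences. Higher in knockdown 2 were MRPL23 (0.42), MRPL18 (0.31), MRPS24 (0.24), MRPL17 (0.23), MRPL37 (0.18), MRPL21 (0.15) and MRPL11 (0.14). Lower in knockdown 2 were MRPS27 (-0.32), MRPL15 (-0.30), MRPL16 (-0.30), MRPS31 (-0.30) and MRPS36 (-0.25). The median of all genes for this difference was -0.081. MRPL37 was at 82.1, 81.6 and 80.8 FPKM in knockdown 1, below every control library (91.0, 91.6 and 92.6), and at 90.8, 91.8 and 94.9 in knockdown 2. MRPL21 was at 120.0, 120.2 and 122 FPKM in knockdown 1 and 137, 130.2 and 136 in knockdown 2. The calls of MRPL23 and MRPS36 were lost when single libraries were left out, and that of MRPS36 also with the median-ratio scaling (-0.15, adjusted P = 0.17) and with the GC correction (-0.13, adjusted P = 0.15). MRPL21 was not called with the length correction (0.07, adjusted P = 0.13).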

How the results depend on the processing

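Of the 144 single-gene values of the named genes, all 144 kept their direction and side of the threshold with 0.1 FPKM added, 118 with the median-ratio scaling, 107 with the GC correction and 114 with the length correction. The 5 largest rises and 5 largest falls called in both knockdowns gave 20 calls against control. Of these, 1 was lost under any alternative, that of MRPL41 in knockdown 2 with the GC correction. These 10 genes were chosen for their changes in these same data. Reversed with the GC correction were MRPL12 in knockdown 1 (0.04) and knockdown 2 (0.11), POLRMT (0.06 and 0.10), MYC in knockdown 1 (0.07), and MRPS24 (0.03) and TUFM (0.02) in knockdown 2, and with the median-ratio scaling MRPS18B between knockdowns (0.09). With the GC correction, 46 members rose and 16 fell in knockdown 2, 30 rose and 8 fell between knockdowns, 8 in knockdown 1 and 2 between knockdowns passed the study's limits, and the subunit difference was 0.010 and 0.049. With the median-ratio scaling 23 rose, 8 fell and 3 passed the limits between knockdowns. With the length correction the subunit difference was 0.020 in knockdown 1 and 0 members passed the limits between knockdowns. With a fold limit of 1.5, 3, 5 and 0 members passed. With subunits by structure the difference in knockdown 2 was 0.044. The cause of these shifts was not tested beyond the corrections themselves. Leaving out 1 library at a time, the subunit difference ran from -0.075 to -0.020 in knockdown 1 and from 0.044 to 0.124 in knockdown 2, and between knockdowns the members that fell ran from 11 to 18 (11 without replicate 2 of knockdown 1) and those past the limits from 0 to 2. Same-labeled replicates of different groups did not deviate together (r -0.239 to 0.104 over 9 pairs). No pairing by label was seen, but 3 libraries per group cannot show that there was none. Under a replicate block 31 members rose and 25 fell in knockdown 1, 28 and 22 in knockdown 2, and 8 and 15 between knockdowns. MRPL45 had the fewest estimated fragments.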
